A study of Mus musculus with 2 samples.

Results

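Lactate handling was described through 9 genes of the 32285 genes counted: the lactate transporter genes Slc16a1, Slc16a3 and Slc16a7, the transporter chaperone genes Bsg and Emb, the lactate dehydrogenase genes Ldha and Ldhb, and the mitochondrial pyruvate carrier genes Mpc1 and Mpc2. The genes were chosen by name for their part in moving or converting lactate and pyruvate, and all 9 are present in the count tables. For each, the UMIs (unique molecular identifiers, 1 per captured RNA molecule) were summed over the cells of a class in each library and are given as CPM, UMIs of the gene per 1000000 UMIs of the class.

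The cells came from tumors formed by KPC cells, a mouse pancreatic cancer line, injected into the pancreas of male mice. There was 1 library labelled FLOX (flox) and 1 labelled MCT1-KO (PSCs-MCT1-/- in the study's naming), both of cells that were not sorted by type. MCT1 is the protein of Slc16a1. The study's scheme draws the conditional knockout in mice with loxP-flanked Slc16a1 and Col1a2-Cre-ERT2, a tamoxifen-dependent recombinase driven by a collagen promoter. That promoter is active in pancreatic stellate cells (PSCs) but also in other collagen-producing fibroblasts. The scheme gives tamoxifen or corn oil before tumor implantation, but the labels do not say which of them the mice behind either library received. The age of these mice and the number of tumors behind a library are not given in the sources used here. The injected KPC cells do not carry this recombinase in the scheme.

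Kept barcodes numbered 8739 in the flox library and 11689 in the library labelled MCT1-KO, with 61149689 and 81494894 UMIs, and 59 barcode sequences occurred in both. With 1 library per group there is no replicate check. No test was possible, and every interval given is a 95% exact interval that covers counting error only. Barcodes of 10 to 100 UMIs, which hold RNA free in the suspension, served as background. Of 24 clusters, 4 stayed unnamed. Keratin-positive cells (2667 and 3896 cells, flox first throughout) held Krt8 at 415 and 531 CPM and Ptprc, the leukocyte gene Cd45, at 7.28 and 3.32 CPM. The injected cancer cells would be expected here, but the epithelial gene Epcam was at 0.526 and 0.545 CPM and the fibroblast gene Dcn at 946 and 445 CPM, so the class is named by its keratin genes. Free RNA held Krt8 at 455 and 547 CPM, above the level of this class, while macrophage-like cells held it at 46.1 and 51.3 CPM. PSC-like cells (233 and 420) held Col1a1 at 5821 and 3778 CPM. Macrophage-like (2242 and 1902), neutrophil-like (757 and 708), T-like (569 and 499), endothelial-like (121 and 145) and dendritic-like cells (115 and 109) were also compared. Acinar-like (43 and 464), B-like (32 and 178) and plasma-like clusters (35 and 58) were named but left out, since each held under 50 flox cells, so every order of classes below is over the 7 classes compared. RNA of other classes was found throughout. In PSC-like cells the summed macrophage markers were at 5339 and 7695 CPM, against 53206 and 60189 CPM in macrophage-like cells, and the summed acinar markers at 124 and 2384 CPM. The macrophage gene C1qa was at 225.5 and 265 CPM in PSC-like cells, against 4918 and 5208 CPM in macrophage-like cells. Lyz2 was at 302 and 267 CPM, against 6843 and 5323 CPM, so the summed list gave a larger share than these genes. The clusters left unnamed held 22.0% and 28.3% of kept cells, nearly all of them of low depth.

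Cells that burn glucose quickly reduce pyruvate to lactate with lactate dehydrogenase and release it with a proton through monocarboxylate transporters (MCTs). MCT1 carries lactate in either direction and MCT2, from Slc16a7, has a high affinity for uptake. MCT4, from Slc16a3, is the usual exporter of strongly glycolytic cells. The transporters reach the membrane with a chaperone, basigin (Bsg) or embigin (Emb). Lactate dehydrogenase is a tetramer of A (Ldha) and B (Ldhb) subunits, and the A form favors lactate. Mpc1 and Mpc2 form the carrier that takes pyruvate into mitochondria. In pancreatic cancer, lactate from cancer cells is held to be taken up by other cells of the tumor.

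Promoters are shown because several of these genes are textbook targets of the hypoxia-inducible factors. The windows are the 250 bases before the start in RefSeq on GRCm38.p6, where 7 of the 9 genes matched by symbol. Capitals mark ACGTG or its reverse CACGT, the core letters of the hypoxia response element, searched on both strands. The same letters are part of the E-box CACGTG, so each E-box counts on both strands. These letters were in the window of 3 of the 7 genes, Ldha, Slc16a3 and Slc16a1, against 18.5% of all 27025 genes with a window. Both strings hold a CG, and these 3 windows had 67.2% to 76.4% GC, beside a median of 52.4% over all windows. The share over all genes was not matched for GC. A match is a string of letters and not a shown binding site.

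Ldha, chr7:46845554-46845803, plus strand: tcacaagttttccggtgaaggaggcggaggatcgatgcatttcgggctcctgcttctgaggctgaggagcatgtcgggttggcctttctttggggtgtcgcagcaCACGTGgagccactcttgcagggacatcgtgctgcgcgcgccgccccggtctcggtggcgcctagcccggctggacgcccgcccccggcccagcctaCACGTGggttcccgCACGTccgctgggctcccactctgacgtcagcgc
Slc16a3, chr11:120948817-120949066, plus strand: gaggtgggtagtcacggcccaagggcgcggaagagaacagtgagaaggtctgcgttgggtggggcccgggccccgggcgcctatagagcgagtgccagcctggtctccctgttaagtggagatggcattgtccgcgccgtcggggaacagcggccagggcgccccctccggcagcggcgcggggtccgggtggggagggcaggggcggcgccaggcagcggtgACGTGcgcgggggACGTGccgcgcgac
Slc16a1, chr3:104638414-104638663, plus strand: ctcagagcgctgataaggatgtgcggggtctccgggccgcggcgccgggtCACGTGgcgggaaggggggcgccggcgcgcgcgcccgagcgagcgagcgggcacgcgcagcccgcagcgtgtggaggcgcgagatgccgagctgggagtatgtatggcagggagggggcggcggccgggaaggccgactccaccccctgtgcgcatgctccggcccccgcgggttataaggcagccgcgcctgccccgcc
Ldhb, chr6:142507958-142508207, minus strand: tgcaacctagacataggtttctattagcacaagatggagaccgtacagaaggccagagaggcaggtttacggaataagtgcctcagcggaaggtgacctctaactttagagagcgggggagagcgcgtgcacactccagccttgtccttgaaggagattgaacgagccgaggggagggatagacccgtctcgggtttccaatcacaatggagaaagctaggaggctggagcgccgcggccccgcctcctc

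Ldha held 3 separate stretches, 2 of them E-boxes, and Slc16a3 held 2 close to the start. Slc16a1 held a single E-box, 200 bases before the start. The window of Ldhb, the other dehydrogenase subunit, held none. Windows of Emb, Mpc1 and Mpc2 and the other promoter of Ldha held none either.

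The targeted gene is given first. Slc16a1 (ENSMUSG00000032902, GRCm38 chromosome 3, 104638668 to 104658462, plus strand) has 5 exons in its transcript Slc16a1-201, and the last exon is 3015 bases long (104655448 to 104658462). The scheme draws the loxP sites around internal exons and the kit reads RNA from the 3′ end. UMIs of the last exon lie outside the deleted part, so they do not check the deletion. In PSC-like cells Slc16a1 UMIs numbered 57 in flox and 112 in the library labelled MCT1-KO. That was 25.6 CPM (19.4 to 33.1) and 35.5 CPM (29.3 to 42.7). The ratio of the library labelled MCT1-KO over flox, the form of every ratio between libraries given here, was 1.39 (1.00 to 1.95). The level was therefore not lower in the library labelled MCT1-KO.

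The same held in the parts of the class with a Col1a2 UMI or an Acta2 UMI. PSC-like cells with a Col1a2 UMI, the gene whose promoter drives the recombinase, had Slc16a1 at 26.0 CPM in 210 cells and 33.9 CPM in 358 cells (ratio 1.31, 0.934 to 1.84). In cells with a UMI of Acta2, the contractile gene of activated PSCs, the levels were 24.6 and 33.6 CPM (ratio 1.37, 0.905 to 2.08). Immune RNA was widespread in the class, since 222 of 233 and 356 of 420 cells held a UMI of Ptprc, Cd74, Lyz2, C1qa, C1qb or C1qc. The 11 flox cells without such a UMI had no Slc16a1 among 22834 UMIs, which allows up to 131 CPM (3 UMIs over that total, and 162 CPM as the upper 95% limit), and the 64 cells of the other library had 55.4 CPM (28.6 to 96.8). Thinned to 1000 UMIs per cell, 2.42% of 207 flox cells (0.789 to 5.55) and 4.69% of 384 cells (2.80 to 7.31) held a Slc16a1 UMI. At 2000 UMIs per cell the shares were 5.79% and 6.25%. With all UMIs the shares were 17.6% and 21.7%, at median depths of 8174 and 6985 UMIs. Macrophage-like cells, where the gene was low, gave 3.39% and 3.84% at 6290 and 5006 UMIs.

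Across classes Slc16a1 was highest in keratin-positive cells, at 38.1 CPM (36.0 to 40.2) and 46.2 CPM (44.4 to 48.0). With each cell classed by its marker UMIs, PSC-like cells were highest in flox, and without cells holding immune UMIs they were highest in the library labelled MCT1-KO. Among the 7 classes compared PSC-like cells came next and T-like cells, at 19.7 and 24.6 CPM, followed with intervals that overlapped those of PSC-like cells. The other 4 classes lay between 5.08 and 13.2 CPM and overlapped each other. Of the clusters left out, the acinar-like cells of the library labelled MCT1-KO held 41.1 CPM (31.7 to 52.5). That was above the PSC-like value there, but the intervals overlapped, and the flox value rests on 2 UMIs. The acinar-like cluster was of low depth (median 1009 UMIs) and held Krt8 at 404 CPM and Krt18 at 503 CPM. The part of keratin-cell or free RNA in its Slc16a1 level was not tested. Keratin-positive cells supplied 81.5% and 82.9% of all Slc16a1 UMIs of kept cells, and PSC-like cells 3.57% and 3.65%. Of the UMIs of all genes, keratin-positive cells held 34214184 of 61149689 and 55086802 of 81494894, and PSC-like cells 2230196 and 3152887. These shares of Slc16a1 UMIs therefore follow the size and depth of a class as well as its level. The highest of the 7 classes was the same in both libraries for every one of the 9 genes. The shares of all genes given next, each for a class highest in both libraries, together cover most genes. Such agreement is therefore not particular to the 9 genes. Keratin-positive cells were highest for 3 of the 9 genes (Slc16a1, Bsg and Ldha), against 12% of 15465 genes with at least 50 UMIs. Endothelial-like cells were highest for none, against 9.03% of genes. Neutrophil-like cells were highest for Slc16a3 (9.36% of genes), macrophage-like for Slc16a7 (4.92%), T-like for Emb (11.6%), PSC-like for Ldhb (9.65%) and dendritic-like cells for Mpc1 and Mpc2 (4.81%).

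**Figure D1:**
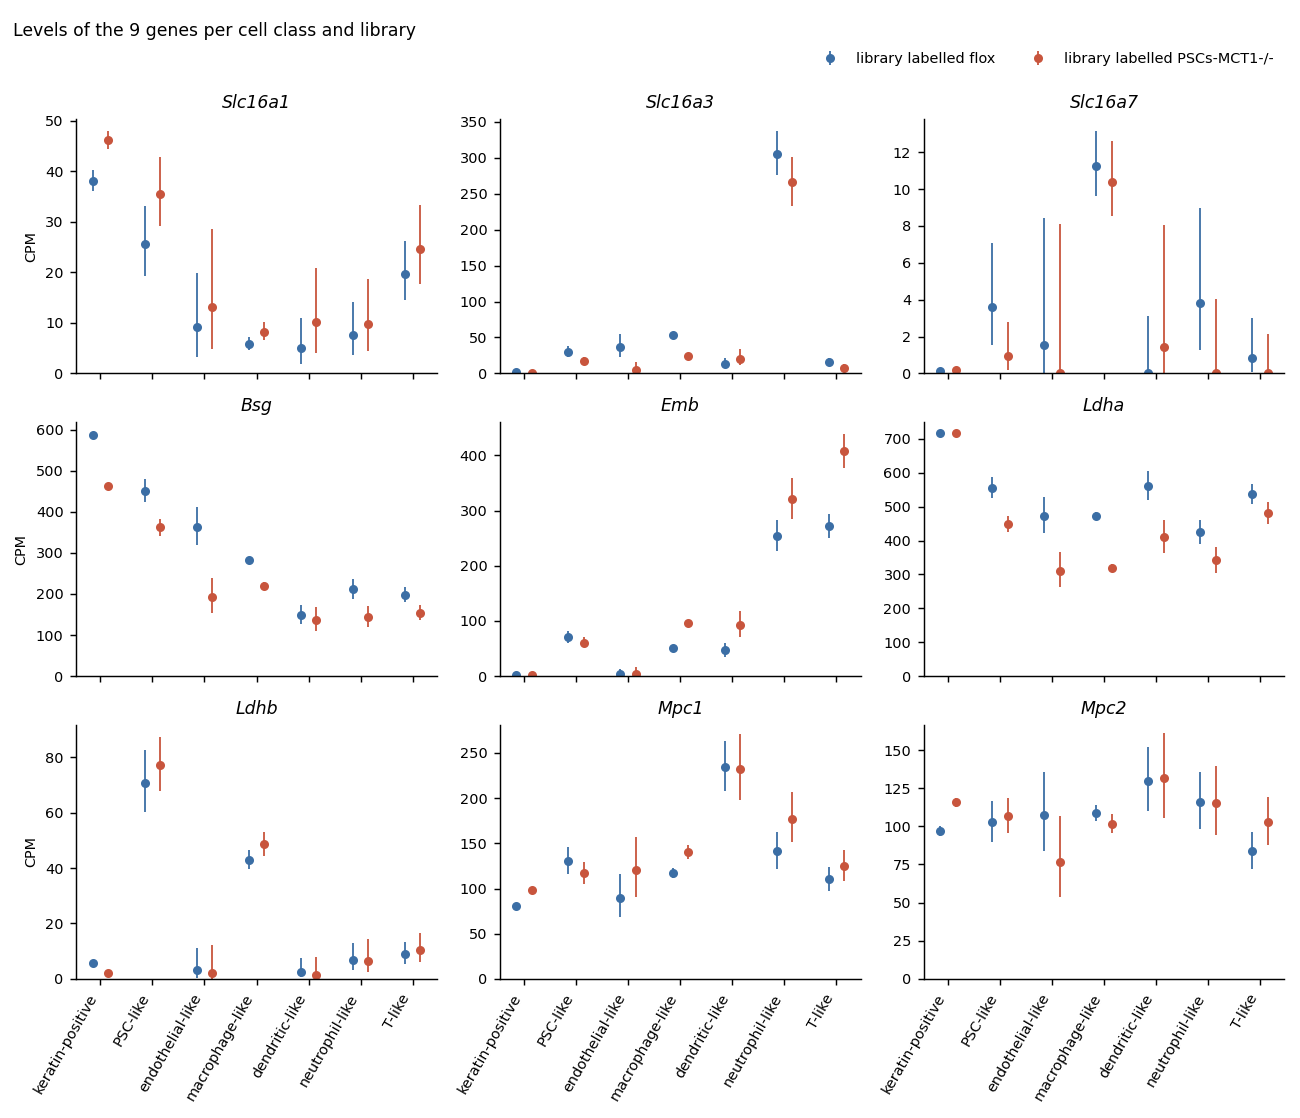
CPM of each gene (vertical axis, starting at 0) in 7 cell classes, flox library in blue and library labelled MCT1-KO in red, with 95% counting intervals. Slc16a1, Bsg and Ldha peak in keratin-positive cells, Slc16a3 in neutrophil-like cells at 305 and 266 CPM, Emb in T-like cells and Ldhb in PSC-like cells.

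Slc16a3, the gene of the exporter MCT4 (ENSMUSG00000025161, GRCm38 chromosome 11, 120948480 to 120960868, plus strand), had nearly the opposite distribution. Neutrophil-like cells held 305 CPM (276 to 337) and 266 CPM (233 to 301). Macrophage-like cells followed at 53.2 CPM (49.6 to 57.1) and 24.5 CPM (21.5 to 27.7). Keratin-positive cells held only 2.08 CPM (1.62 to 2.62) and 0.563 CPM (0.382 to 0.799). Of the UMIs of Slc16a1 plus Slc16a3, Slc16a1 made up 94.8% and 98.8% in keratin-positive cells but 2.45% and 3.56% in neutrophil-like cells.

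The low value in keratin-positive cells was compared with free RNA. Slc16a3 there was at 10.8% and 7.26% of its own level in barcodes of 10 to 100 UMIs. The neutrophil genes S100a8 and S100a9, which these cells should lack, were at 11.1% and 6.99% of theirs, the macrophage genes C1qa at 7.04% and 4.30% and Lyz2 at 8.11% and 4.79%. Emb was at 11.8% and 9.22%. Slc16a1, in contrast, was at 178% and 220% of its free level in the same cells. Slc16a3 lay above the macrophage genes and near the neutrophil genes, and Emb above all of them. Both were near what free RNA gives in keratin-positive cells and are not read as expression there.

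**Figure D2:**
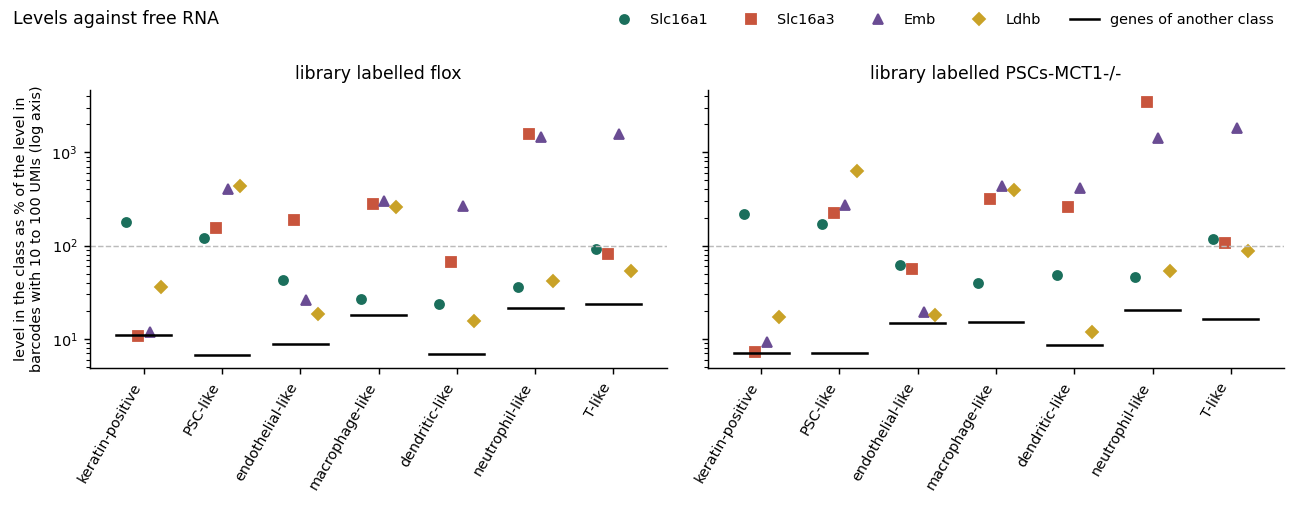
Level of 4 genes in each class as a percent of their level in barcodes of 10 to 100 UMIs (log axis), 1 panel per library, and as a black bar the same percent for genes of another class (S100a8 plus S100a9, or Krt8 plus Krt18 in neutrophil-like cells). In keratin-positive cells Slc16a3 lies on the bar in both libraries (10.8% and 7.26%), while in neutrophil-like cells it is at 1589% and 3427%.

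Slc16a3 had a ratio below 1 in 6 of 7 classes, the exception being dendritic-like cells (1.59, 0.712 to 3.54, from 15 and 14 UMIs). In macrophage-like cells the ratio was 0.460 (0.397 to 0.531) and in PSC-like cells, at 29.6 and 17.4 CPM, it was 0.590 (0.405 to 0.856). In neutrophil-like cells, its highest class, the ratio was 0.870 (0.739 to 1.02). Free RNA moved the same way, from 19.2 to 7.75 CPM, and in T-like cells (15.5 and 8.21 CPM) the gene was at 80.9% and 106% of that free level, where S100a8 and S100a9 were at 23.6% and 16.2% of theirs. With free RNA subtracted, scaled by acinar genes or by S100a8 and S100a9, the ratio was 0.386 or 0.452 in macrophage-like, 0.547 or 0.600 in PSC-like and 0.618 or 0.576 in T-like cells. In neutrophil-like cells it was 0.609 or 0.868. There, and in every later subtraction scaled by S100a8 and S100a9, neutrophil-like cells were scaled by Krt8 and Krt18 instead.

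Slc16a7, the gene of the high-affinity transporter MCT2 (ENSMUSG00000020102, GRCm38 chromosome 10, 125219270 to 125389465, minus strand), was the rarest. Macrophage-like cells held 11.3 CPM (9.62 to 13.1) and 10.4 CPM (8.53 to 12.6), and the ratio was 0.924 (0.717 to 1.19). They carried 79.8% and 75.2% of its UMIs. The other 6 classes had at most 9 UMIs each in a library. In keratin-positive cells 4 and 9 UMIs amounted to 0.117 and 0.163 CPM.

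Of the chaperones, Bsg (ENSMUSG00000023175, GRCm38 chromosome 10, 79704491 to 79711969, plus strand) varied less between the classes than Emb. Its levels in flox were 21.9% to 86.1% of its free level, and only keratin-positive cells of the other library passed it (101.6%). Emb was above its free level in T-like, neutrophil-like, PSC-like, macrophage-like and dendritic-like cells of both libraries. Bsg was highest in keratin-positive cells at 586 CPM (578 to 594) and 462 CPM (456 to 467), then in PSC-like cells at 450 and 362 CPM. Of the 7 classes dendritic-like cells were lowest, at 149 and 137 CPM, and the B-like cells left out held 171 and 105.5 CPM. Emb (ENSMUSG00000021728, GRCm38 chromosome 13, 117208536 to 117274415, plus strand) was highest in T-like cells at 271 CPM (251 to 293) and 407 CPM (377 to 438). Neutrophil-like cells held 254 and 320 CPM of Emb, and PSC-like cells 70.4 and 60.9 CPM.

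Bsg supplied 99.7% and 99.6% of the UMIs of Bsg plus Emb in keratin-positive cells and 86.5% and 85.6% in PSC-like cells. In T-like cells its share was 42.2% (39.3 to 45.1) and 27.5% (24.7 to 30.4), and in neutrophil-like cells 45.4% (41.4 to 49.4) and 31.0% (26.6 to 35.6). Much of the Bsg in the latter classes is not separable from free RNA. Bsg was at 29.1% and 33.95% of its free level in T-like cells, where S100a8 and S100a9 were at 23.6% and 16.2% of theirs, and at 31.0% and 31.6% in neutrophil-like cells, where Krt8 and Krt18 were at 21.3% and 20.5%. The chaperone shares of these 2 classes, and their difference between libraries, are therefore not read as the cells' own. UMIs count 3′ ends, so gene length does not enter, but capture can differ between genes and the shares are not protein ratios. Among T-like cells, Emb was at 233 and 322 CPM in CD8+ cells (UMIs of Cd8a or Cd8b1 but none of Cd4), and at 214 and 428 CPM in CD4+ cells (UMIs of Cd4 but of neither Cd8 gene). Slc16a1 in the CD8+ T-like cells was at 20.4 CPM (13.7 to 29.1) and 26.6 CPM (17.4 to 39.0).

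**Figure D3:**
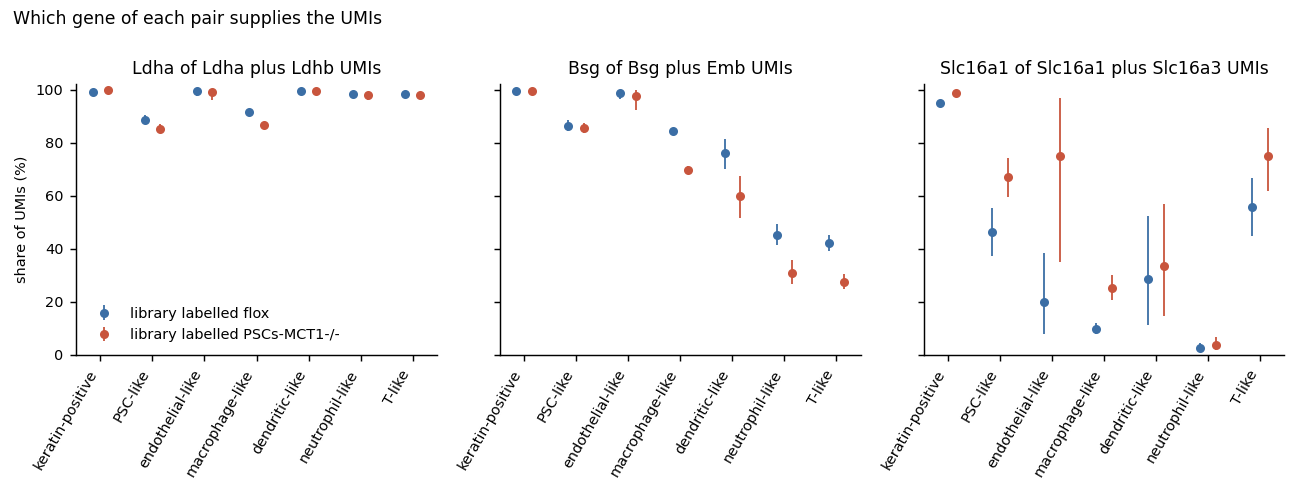
Share of UMIs (%) that the first gene of each pair supplies, per class and library (flox in blue, library labelled MCT1-KO in red), with 95% Clopper-Pearson intervals. Slc16a1 supplies 94.8% and 98.8% of the transporter pair in keratin-positive cells and 2.45% and 3.56% in neutrophil-like cells.

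Emb was higher in the library labelled MCT1-KO in several immune classes, and free Emb RNA was also higher there, at 17.4 and 22.3 CPM. In macrophage-like cells it was at 51.8 CPM (48.2 to 55.6) in flox and 95.99 CPM (90.1 to 102.2) in the other library, with a ratio of 1.85 (1.68 to 2.04). T-like cells had a ratio of 1.501 (1.35 to 1.67), dendritic-like cells 1.98 (1.36 to 2.90) and neutrophil-like cells 1.26 (1.07 to 1.48). After the acinar-scaled and S100-scaled subtractions of free RNA these ratios were 1.56 and 1.84 in macrophage-like, 1.15 and 1.38 in T-like, 1.67 and 2.03 in dendritic-like and 0.872 and 1.25 in neutrophil-like cells. The T-like difference was thus no longer past 1.5-fold, nor was it under 4 other alternatives (1.41 to 1.495), and the neutrophil-like one turned with acinar scaling. PSC-like cells had a ratio of 0.865 (0.697 to 1.07), with 0.594 (0.419 to 0.854) in those without an Acta2 UMI and 0.232 in those without immune UMIs, from 5 and 11 UMIs. Bsg had a ratio below 1 in all 7 classes, from 0.532 in endothelial-like to 0.920 in dendritic-like cells. Of 11964 genes, 5.42% were below 1 in all 7 classes. After subtraction of free RNA scaled by acinar genes 4 classes had a Bsg ratio, 0.584 in endothelial-like, 0.808 in keratin-positive, 1.01 in PSC-like and 2.19 in macrophage-like cells, and the other 3 had no value. After subtraction scaled by S100a8 and S100a9 it was below 1 in 6 of 7 classes, as it was with classes by marker UMIs (highest ratio 1.02). Free Bsg RNA was itself at 681 and 454 CPM.

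Slc16a1 had a ratio above 1 in all 7 classes, as 5.5% of genes did, but 3 of these classes held at most 10 UMIs of it in a library. In the other 4 the ratio ran from 1.21 in keratin-positive to 1.43 in macrophage-like cells. In macrophage-like cells Slc16a1 was at only 26.9% and 39.3% of its free level, where S100a8 and S100a9 were at 18.3% and 15.3% of theirs. The macrophage-like ratio became 2.61 after subtraction scaled by S100a8 and S100a9. The dendritic-like ratio of 1.99 (0.572 to 7.16) rests on 6 and 7 UMIs, the endothelial-like one on 6 and 6 and the neutrophil-like one on 10 and 9. Only in keratin-positive (1.13 to 1.30), macrophage-like (1.05 to 1.96) and PSC-like cells (lower bound 1.00) did the interval stay at or above 1. The direction fell to 6 of 7 classes at a clustering resolution of 0.4, without integration, and with classes taken from each cell's marker UMIs. After subtraction of free RNA scaled by acinar genes 4 classes had a ratio, all above 1, and the other 3 had no value. The keratin-positive level rests on 1303 and 2543 UMIs, against 57 and 112 in PSC-like cells.

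Ldha (ENSMUSG00000063229, GRCm38 chromosome 7, 46841475 to 46855627, plus strand), the subunit that favors lactate, was the most abundant of the 9 genes in keratin-positive cells. It stood at 718 CPM (709 to 727) in flox and 717 CPM (710 to 724) in the other library, with a ratio of 0.999 (0.983 to 1.01). Free Ldha RNA was at 931 and 763 CPM, above every class, so a share of cells with an Ldha UMI is not read as expression. In keratin-positive cells Ldha was at 77.1% and 93.9% of that free level. The other 6 classes compared lay between 311 and 562 CPM, while the plasma-like (178 and 195 CPM) and B-like cells left out (140 and 288 CPM) lay lower. PSC-like cells held 557 and 448 CPM (ratio 0.805, 0.745 to 0.869) and macrophage-like cells 472 and 321 CPM (ratio 0.679, 0.651 to 0.708). Those 2 ratios became 1.04 and 1.03 after subtraction of free RNA scaled by acinar genes, and 0.7999 and 0.650 when it was scaled by S100a8 and S100a9. Ldha was below 1 in all 7 classes, in 6 of 7 with a mitochondrial limit of 5%, with classes by marker UMIs or with the other total, in 2 of the 6 with a value after subtraction scaled by acinar genes, and in 5 of 7 when it was scaled by S100a8 and S100a9. Pseudogene copies of Ldha and Mpc1 exist in the mouse annotation and are not among the counted genes. How reads shared with them were counted is not given in the sources used here.

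Ldhb (ENSMUSG00000030246, GRCm38 chromosome 6, 142490249 to 142507957, minus strand), the subunit common in lactate-consuming tissues, separated the classes more sharply. PSC-like cells held 70.9 CPM (60.2 to 82.8) and 77.1 CPM (67.7 to 87.4). Macrophage-like cells followed at 42.9 and 48.6 CPM, with intervals below those of PSC-like cells in both libraries. The other 5 classes lay between 1.44 and 10.6 CPM, under the free RNA level of 16.4 and 12.2 CPM. Ldha supplied 88.7% (86.9 to 90.3) and 85.3% (83.5 to 87.0) of dehydrogenase UMIs in PSC-like cells, 91.7% and 86.8% in macrophage-like cells, and 99.2% and 99.7% in keratin-positive cells. The Ldhb share was thus highest in PSC-like cells, but not with classes by marker UMIs, nor in the library labelled MCT1-KO after either free RNA subtraction. The PSC-like intervals overlap those of macrophage-like cells in the library labelled MCT1-KO (85.7 to 87.9) but not in flox (91.0 to 92.3).

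Ldhb in keratin-positive cells was at 5.85 CPM (5.06 to 6.71) and 2.11 CPM (1.74 to 2.53), with a ratio of 0.360 (0.284 to 0.455). It was at 35.6% and 17.3% of its free RNA level, above the 11.1% and 6.99% of the neutrophil genes in the same cells. After subtraction of free RNA the ratio was 0.387 when scaled by acinar genes and 0.298 when scaled by S100a8 and S100a9.

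Mpc1 (ENSMUSG00000023861, GRCm38 chromosome 17, 8282904 to 8297661, plus strand) and Mpc2 (ENSMUSG00000026568, GRCm38 chromosome 1, 165460637 to 165481214, plus strand) had UMIs in every class, but free RNA held 119 and 133 CPM of Mpc1 and 142 and 160.4 CPM of Mpc2. Mpc2 was below its free level in all 7 classes, at 47.8% to 91.0% of it. Mpc1 ranged from 80.5 to 235 CPM in flox and from 98.8 to 232 CPM in the other library, with dendritic-like cells highest. Mpc2 ranged from 83.6 to 130 CPM and from 76.7 to 131 CPM, and the interval of its highest class overlapped that of the next. The plasma-like cells left out held more Mpc2, at 138 and 199.6 CPM. In keratin-positive cells both were higher in the library labelled MCT1-KO, by ratios of 1.23 (1.17 to 1.29) and 1.20 (1.15 to 1.25). In PSC-like cells the ratios were 0.900 (0.770 to 1.05) and 1.04 (0.877 to 1.24).

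A difference of 1.5-fold between the libraries was counted where a gene had at least 50 UMIs in the class. In PSC-like cells 8 of the 9 genes could be counted, and Slc16a3 alone was past 1.5-fold, lower, where 11.2% of 8575 genes were lower and 9.89% higher. PSC-like cells with immune UMIs held 2207362 of 2230196 and 2936404 of 3152887 UMIs of the class, so they are nearly the whole class. In them Slc16a3 was at 29.9 and 18.4 CPM (ratio 0.615, 0.421 to 0.895). The 11 and 64 PSC-like cells without immune UMIs held 0 and 1 UMIs of Slc16a3 among 22834 and 216483 UMIs. That is too few to say where in the class its UMIs lie. In PSC-like cells with an Acta2 UMI (156 and 173 cells) Slc16a3 was at 26.2 and 23.2 CPM (ratio 0.886, 0.563 to 1.38). In those without (77 and 247 cells) it was at 44.9 and 11.2 CPM, from 18 and 17 UMIs, so the difference was not past 1.5-fold in the Acta2-positive cells. In keratin-positive cells Ldhb of 8 was lower, as was Slc16a3, whose level there was near that of free RNA (8.68% of all genes lower and 5.51% higher). In macrophage-like cells, of 9, Slc16a3 was lower and Emb higher (9.46% and 6.45%). In T-like cells, of 7, Slc16a3 was lower and Emb higher (10.1% and 6.03%). The T-like Slc16a3 ratio of 0.529 (0.264 to 1.00) rests on 37 and 14 UMIs, its interval reaches 1, and without high doublet scores it was 0.712, not past 1.5-fold. In neutrophil-like cells none of 6 was past 1.5-fold, where 10.4% of genes were lower and 14.2% higher. In endothelial-like cells Bsg and Ldha of 4 were lower, where 14.4% of genes were lower and 7.25% higher. Ldha was barely past 1.5-fold there (ratio 0.657, 0.535 to 0.804), and under 7 of 10 alternatives it was not, with ratios of 0.703 to 0.823. In dendritic-like cells Emb of 5 was higher, where 13% of genes were lower and 9.43% higher. The median ratio of the counted genes was 0.883 in PSC-like and 1.00 in keratin-positive cells, beside 0.979 and 1.01 over all genes.

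**Figure D4:**
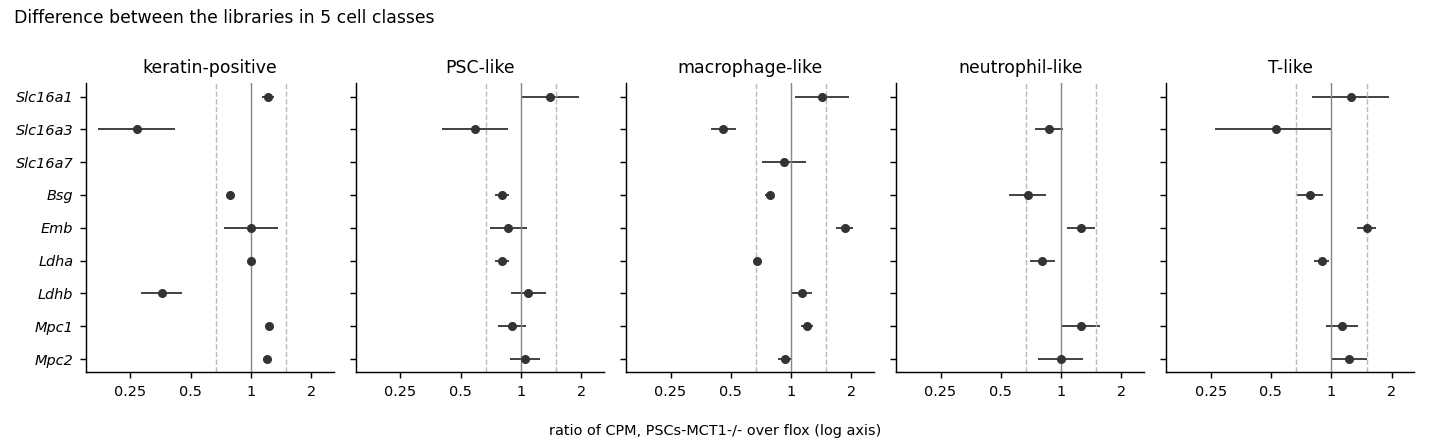
Ratio of CPM, library labelled MCT1-KO over flox (log axis), for the genes with at least 50 UMIs in each of 5 classes, with 95% counting intervals and dashed lines at 1.5-fold in either direction. Slc16a3 lies left of 1 in all 5 panels, and Emb right of 1 in macrophage-like, neutrophil-like and T-like cells, at 1.85, 1.26 and 1.501.

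Keratin-positive cells formed 6 clusters, and Ldha, Bsg and Slc16a1 varied among them. The genes described here were left out of the clustering, but a cluster is not independent of them and the values are a description. The cluster led by Msln and Krt19 (466 and 901 cells) had Ldha at 907 and 865 CPM. The cluster led by Enpp2 and Bdkrb2 (835 and 1283 cells) had 595 and 641 CPM, which gives ratios of 1.52 (1.48 to 1.57) in flox and 1.35 (1.32 to 1.38) in the other library. Bsg was higher in the Msln cluster too, at 724 and 531 CPM against 527 and 432 CPM, and so was Slc16a1, at 45.3 and 52.6 CPM against 35.1 and 43.7 CPM. Pgk1, a glycolytic enzyme, was at 453 and 402 CPM against 190 and 193 CPM. Mpc2 differed little, at 93.9 and 123 CPM against 98.5 and 116 CPM.

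Not all genes of that kind moved together. Slc2a1, the glucose transporter gene, was at 70.8 and 61.6 CPM in the Msln cluster and at 73.3 and 77.1 CPM in the Enpp2 cluster. The cycling cluster led by Ube2c and Cenpf (399 and 680 cells) had the highest Ldha in flox, 957 CPM, but 732 CPM in the other library, a ratio of 0.764 (0.728 to 0.803). The ratio of the Enpp2 cluster was 1.08 (1.05 to 1.11) and that of the cluster led by Cxcl10 and Iigp1 1.24 (1.15 to 1.35), so the keratin-positive clusters did not share a direction. Slc16a3 stayed at or under 4.13 CPM in all 6 clusters, whatever their Ldha.

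Macrophage-like cells formed 3 clusters. In the cluster led by Arg1 and Ccl4 (719 and 703 cells) Ldha was at 627 and 370 CPM, against 380 and 278 CPM in the C1q-high cluster led by Apoe and C1qc (1290 and 1069 cells). Slc16a3 was at 85.2 and 43.5 CPM against 34.0 and 14.7 CPM, ratios of 2.51 (2.14 to 2.94) and 2.96 (2.25 to 3.93). Emb followed, at 91.1 and 130 CPM against 25.4 and 70.2 CPM. Ldhb was the other way around, at 39.6 and 38.7 CPM against 46.6 and 57.4 CPM. In the Arg1 cluster Ldha had a ratio between the libraries of 0.589 (0.553 to 0.628), and in the C1q cluster 0.732 (0.687 to 0.780). Slc16a3 had 0.510 (0.423 to 0.612) and 0.431 (0.330 to 0.558). The remaining, cycling cluster led by Mki67 (233 and 130 cells) had Slc16a3 at 46.4 and 7.19 CPM, a ratio of 0.155 (0.0650 to 0.317).

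**Figure D5:**
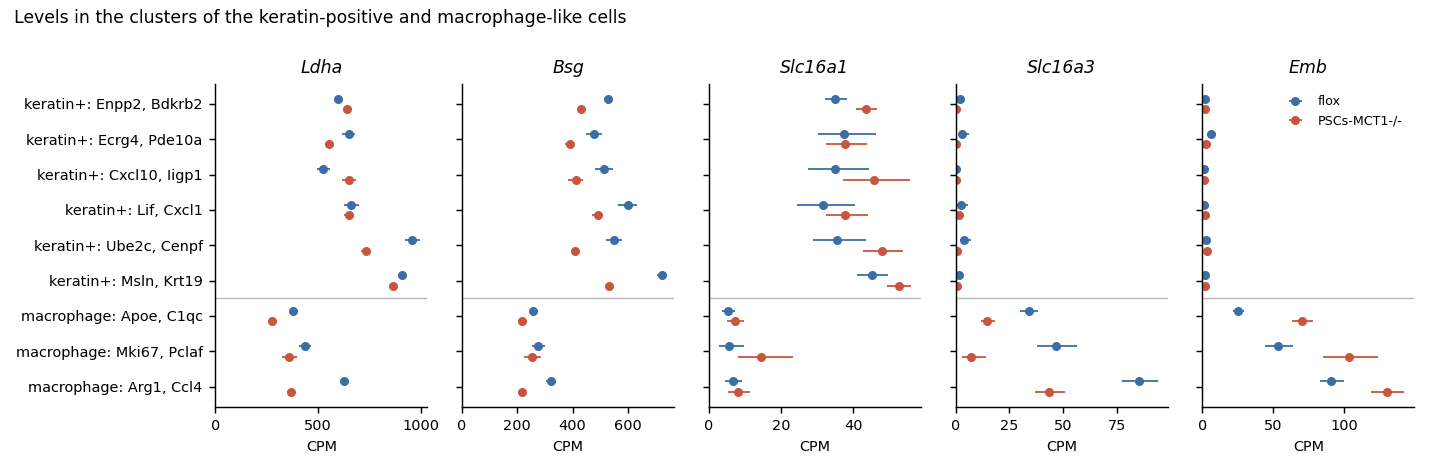
CPM of 5 genes (horizontal axes, starting at 0) in the 6 keratin-positive and 3 macrophage-like clusters, each named by a pair of its leading genes, flox in blue and library labelled MCT1-KO in red, with 95% counting intervals. Among keratin-positive clusters Ldha is highest in the Msln and cycling clusters and Bsg in the Msln cluster, and Slc16a3 and Emb in the Arg1 cluster of the macrophage-like cells in both libraries.

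PSC-like cells formed 2 clusters. The small mural cluster led by Rgs5 and Actg2 (15 and 24 cells) held only 3 and 9 UMIs of Slc16a3, or 27.1 CPM (5.59 to 79.2) and 62.8 CPM (28.7 to 119), and 1 and 2 UMIs of Emb. The main cluster led by Col1a2 and Cxcl13 (218 and 396 cells) held 29.7 and 15.3 CPM of Slc16a3, with overlapping intervals in flox, and 73.6 and 63.1 CPM of Emb.

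Other genes of lactate and pyruvate handling were counted from 5 lists, beside shares of all genes past 1.5-fold of 9.89% higher and 11.2% lower in PSC-like cells and 5.51% higher and 8.68% lower in keratin-positive cells. Of 13 other monocarboxylate transporters, 2 could be counted in PSC-like cells, and Slc16a10, an aromatic amino acid transporter, was higher, from 35.4 to 124 CPM (ratio 3.49, 2.74 to 4.51). In keratin-positive cells 5 could be counted and 2 were higher, Slc16a10 (61.5 to 94.7 CPM) and Slc16a11 (25.8 to 43.7 CPM). Of 8 other lactate enzymes and receptors, none of 3 was past 1.5-fold in PSC-like cells, while in keratin-positive cells 2 of 5 were lower, malic enzyme Me1 (80.3 to 50.3 CPM) and the acid-sensing receptor Gpr132 (2.57 to 1.62 CPM). The macrophage gene Lyz2 was at 129 and 39.9 CPM in keratin-positive cells, and the part of such RNA in the Gpr132 difference was not tested. The lactate receptor gene Hcar1 had 0 UMIs in keratin-positive cells of either library.

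Of 17 genes from glucose uptake to pyruvate, 15 were counted in PSC-like cells, with Pfkl lower (32.3 to 15.2 CPM) and Slc2a3 higher (11.2 to 20.6 CPM). In keratin-positive cells Pfkl (49.4 to 26.3 CPM) and Hk3 (1.29 to 0.290 CPM) of 16 were lower and none was higher, where 8.68% of all genes were lower and 5.51% higher. Lyz2, a macrophage gene, was at 129 and 39.9 CPM in the same cells, and its part in the Hk3 difference was not tested. Macrophage-like cells had 7 of 17 lower and 1 higher, with a list median of 0.714 beside 0.997 over all genes, of which 9.46% were lower and 6.45% higher. The list was lower in other classes too. Neutrophil-like cells had 6 of 15 lower and 1 higher (median 0.723, all genes 10.4% lower and 14.2% higher). Endothelial-like cells had 6 of 13 lower and none higher (0.672, 14.4% and 7.25%). Dendritic-like cells had 4 of 13 lower and none higher (0.824, 13% and 9.43%). T-like cells had 2 of 15 lower and none higher (0.768, 10.1% and 6.03%). Of 13 genes that take pyruvate into the citric acid cycle, Pcx, pyruvate carboxylase, was higher in PSC-like cells (4.48 to 15.5 CPM, 9 counted). Pdk1, an inhibitory kinase of pyruvate dehydrogenase, was lower in keratin-positive cells (10.8 to 7.12 CPM, 12 counted).

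Of 12 hypoxia response genes, 4 were lower in keratin-positive cells and none higher, where 8.68% of all genes were lower and 5.51% higher. Among them were P4ha1, a collagen prolyl hydroxylase (179 to 60.9 CPM), and Adm, the gene of adrenomedullin (3.57 to 1.54 CPM). Macrophage-like cells had 5 of 11 lower and none higher, where 9.46% of all genes were lower and 6.45% higher. Neutrophil-like cells had 4 of 9 lower and 1 higher (all genes 10.4% lower and 14.2% higher). Endothelial-like cells had 4 of 8 lower and none higher (14.4% and 7.25%). T-like cells had 3 of 8 lower and 1 higher (10.1% and 6.03%), and dendritic-like cells 2 of 5 lower and 2 higher (13% and 9.43%). In PSC-like cells P4ha1 (127 to 64.1 CPM) and Vegfa (94.6 to 59.3 CPM) were lower and Epas1, which encodes HIF-2α, was higher (36.8 to 79.0 CPM), of 11 counted. Of the 3 genes with hypoxia core letters in the windows above, Ldha had a ratio of 0.999 in keratin-positive cells, Slc16a1 had a ratio of 1.21 and Slc16a3 was near the level of free RNA there. In macrophage-like cells the ratios were 0.679 for Ldha, 0.460 for Slc16a3 and 1.43 for Slc16a1. Those of Ldha and Slc16a1 depended on the free RNA subtraction, and that of Slc16a1 was 2.61 when scaled by S100a8 and S100a9. A part of hypoxia in these values was not tested.

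The genes with the pattern most like that of Slc16a1 over the 14 class and library values were Adgrl1, Lrig1, Setbp1, Ptpn13 and Osr2 (Pearson r 0.935 to 0.957 on log2(CPM + 10), among 11012 genes with at least 500 UMIs). For Slc16a3 they were Csf3r, Il1rap, D8Ertd738e, Clec5a and Acod1 (0.923 to 0.940), and for Emb they were Celf2, Ankrd44, Rassf5, Tnfaip3 and Apbb1ip (0.903 to 0.925). The 7 values of a library share its depth and free RNA, so these correlations are descriptions only.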

How the data were processed

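The deposited values are raw UMI counts per gene and barcode, which the authors obtained from 3′ single-cell libraries with Fastp and SeekOneTools. The labels name the SeekOne MM kit and the study's methods name other kits. The methods and the submitters' processing notes name human GRCh38, but the tables list mouse Ensembl genes, and which build was used for counting could not be settled. The authors analysed the counts in Seurat 4.0.0.

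Barcodes were kept from 500 UMIs upward if they held 200 to 5000 genes and if mitochondrial genes took up to 8% of their UMIs. As in the study, Seurat 5.3.0 (R 4.3.3) integrated the libraries by canonical correlation and clustered cells on 20 dimensions at a resolution of 0.8, with 2000 variable genes that left out the 9 genes and the pathway lists. Clusters were named from marker lists, with at least 3 markers detected in 10% of cells. The design foresaw a tumor-like class. Its markers did not name these clusters, so clusters with Krt8 and Krt18 at 200 CPM or more, Ptprc under 50 CPM, Epcam under 100 CPM and no low depth were called keratin-positive. These thresholds were set after the clusters had been seen, and free RNA itself held both keratin genes above 200 CPM. The thresholds kept out low-depth clusters with 21.6% of flox cells and 27.7% of the other library. Doublets were left in the values given, and in an alternative the top 8% by doublet score were left out (699 and 935 cells).

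Class sums were made in pandas 2.3.3 and intervals with scipy 1.17.1 (python 3.11.15). Intervals are Garwood for CPM, conditional exact for ratios and Clopper-Pearson for shares. The calculations were checked on simulated counts. All 9 genes are described. Genes of the 5 pathway lists were named if among the 3 highest in keratin-positive cells or the 3 largest ratios in either direction in PSC-like or keratin-positive cells, and Pgk1 and Slc2a1 in the cluster contrasts were chosen after their values had been seen. The genes and lists were chosen with earlier results of these data known. Positions are from GENCODE vM21 (GRCm38) by identifier.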

Additional observations from a re-analysis of the deposited data

How the results depend on the processing

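The Slc16a1 ratio in PSC-like cells ranged from 1.20 to 1.45 over 10 alternatives (cell filters, doublets, resolution, integration, class definition, free RNA, total used for CPM), all within its interval. Without cells holding immune UMIs it had no value, since flox had 0 UMIs. Of 458 values of 46 ratios under 11 alternatives, 408 stayed within the interval and 422 on the same side of 1. A ratio had no value where the flox level fell to 0, and such cases are not among the 458. They include Slc16a3 in keratin-positive cells after either free RNA subtraction, and in PSC-like cells without immune UMIs (0 and 1 UMIs). Among the values counted, none of the ratios past 1.5-fold turned to the other side of 1, but 10 values moved by over 1.5 times. With acinar-scaled subtraction Bsg (2.19) and Ldha (1.03) in macrophage-like and Ldha (1.38) and Mpc2 (1.84) in T-like cells did, with S100-scaled subtraction Bsg in T-like (1.96), Slc16a1 in macrophage-like (2.61) and Emb in keratin-positive cells (3.86), with classes by marker UMIs Emb (1.66) and Ldhb (0.161) in keratin-positive cells, and without immune UMIs Emb in PSC-like cells (0.232). Ratios between the libraries within clusters and of the pathway genes were not among the 46. The count of gene and class pairs past 1.5-fold was 7 over the 5 classes without endothelial-like and dendritic-like cells. It was 3 at 2-fold and 4 at a minimum of 200 UMIs. The 7 pairs came from Slc16a3, Emb and Ldhb alone, and include Slc16a3 in keratin-positive cells, which was near free RNA. Over all genes 8.68% to 11.2% were lower and 5.51% to 14.2% higher in these classes, so the count is not read as particular to the 9 genes. The highest class held for 6 of 9 genes when each cell was classed by its marker UMIs, with Slc16a1 and Bsg highest in PSC-like cells in flox and Ldhb in macrophage-like cells. That definition left 286 and 893 keratin-positive cells, with 3823 and 2615 macrophage-like and 797 and 996 PSC-like cells. Emb was highest in neutrophil-like cells after acinar-scaled subtraction, and Slc16a1 in PSC-like cells without immune UMIs in the library labelled MCT1-KO.

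The Ldha share moved with that class definition to 98.99% and 99.8% in keratin-positive, 96.9% and 96.7% in PSC-like and 93.3% and 91.3% in macrophage-like cells. Free RNA scaled by acinar genes gave 99.4% and 99.8%, 80.3% and 82.6%, and 81.3% and 82.2%. Scaled by S100a8 and S100a9, a choice added after seeing the data, it gave 99.35% and 99.8% in keratin-positive and 88.3% and 81.3% in macrophage-like cells. PSC-like cells without immune UMIs gave 80.0% and 78.9%, and no upper gene limit gave 92.3% and 89.8% in macrophage-like cells. The ratio of Ldha between the Msln and Enpp2 clusters was 1.59 in flox without high doublet scores, 1.46 at a resolution of 0.4 and 1.85 without integration, and 1.398 in the other library with no upper gene limit. The share of PSC-like cells with a Slc16a1 UMI was 5.79% in flox and 6.25% in the other library at 2000 UMIs, and 17.6% and 21.7% with all UMIs. The cause of these shifts was not tested, apart from depth per cell in the last.

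Acinar genes were rarer in flox free RNA than in that of the other library (400 CPM, against 20487 CPM). In flox, that subtraction rests on 53 acinar UMIs in endothelial-like cells to 1958 in macrophage-like cells. It set the free RNA of PSC-like cells at 30.9% and 11.6% of the free level, against 6.70% and 7.14% by S100a8 and S100a9. No paired analysis was possible because each group has 1 library. With 1 library per group, differences between the mice, the dissections and the genotypes cannot be told apart.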
